A study of Mus musculus with 2 samples.

Results

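The core of the Hippo pathway was followed in single-cell RNA-seq of perfused mouse liver through 10 listed genes, all 10 of which were rows of the deposited table of 31053 genes. They are Yap1 and Wwtr1, which encode the transcriptional coactivators YAP and TAZ, Tead1, which encodes a DNA-binding partner of both, the kinase genes Stk3, Stk4 and Lats1, the adaptor genes Sav1, Mob1a and Mob1b, and Nf2, which encodes the upstream scaffold merlin. The genes were listed by their place in the pathway, at a time when earlier results of these data were known. The question was in which cell classes each gene was counted, and whether its count in hepatocyte-like barcodes exceeded what free RNA gives to cells of another kind.

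The series holds 2 libraries of C57BL/6 mouse liver, 1 per genotype, and the number of mice behind each is not given in the labels. The control (genotype LaptTA;WT) carried the tetracycline transactivator tTA under the LAP promoter, which is active in hepatocytes, and no tetYAP transgene. The tetYAP 4W library (genotype LaptTA; tetYAP) came from liver that also carried, at the Col1A1 locus, a tTA-driven YAP mutant that lacks an inhibitory phosphorylation site. Per the methods of the study, doxycycline food kept the transgene silent until mice were 4 weeks old, and 4W stands for 4 weeks of induction. With 1 library per group there was no test between groups, and every interval given here is a 95% interval that covers counting error only.

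In the Hippo pathway, STK3 and STK4 bound to SAV1 phosphorylate the LATS kinases and their MOB1 cofactors, with NF2 helping to bring LATS to the membrane. Active LATS kinases phosphorylate YAP and TAZ, which are then held in the cytoplasm or degraded. Unphosphorylated YAP and TAZ enter the nucleus and bind TEAD factors on DNA, and in the liver the pathway restrains organ size and holds hepatocytes in their differentiated state.

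Start windows of 4 of the genes are shown because they hold the core of the motif that TEAD proteins, the product of Tead1 among them, bind on DNA. A window runs from 250 bases before to 50 bases after a RefSeq transcript start (GRCm38.p6, the build that mm10 names), 5′ to 3′ on the strand of the gene, and capitals mark the letters CATTCC or their reverse complement GGAATG. Yap1 is read from chr9:8004547-8004846 (minus strand), Wwtr1 from chr3:57575861-57576160 (minus), Mob1a from chr6:83325789-83326088 (plus) and Sav1 from chr12:69986953-69987252 (minus).
Yap1: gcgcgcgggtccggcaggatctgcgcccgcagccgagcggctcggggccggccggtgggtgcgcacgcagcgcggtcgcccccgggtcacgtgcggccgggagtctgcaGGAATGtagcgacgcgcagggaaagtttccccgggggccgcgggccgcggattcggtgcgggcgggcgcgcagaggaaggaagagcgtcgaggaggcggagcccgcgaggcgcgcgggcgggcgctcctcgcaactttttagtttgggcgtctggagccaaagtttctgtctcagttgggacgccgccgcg
Wwtr1: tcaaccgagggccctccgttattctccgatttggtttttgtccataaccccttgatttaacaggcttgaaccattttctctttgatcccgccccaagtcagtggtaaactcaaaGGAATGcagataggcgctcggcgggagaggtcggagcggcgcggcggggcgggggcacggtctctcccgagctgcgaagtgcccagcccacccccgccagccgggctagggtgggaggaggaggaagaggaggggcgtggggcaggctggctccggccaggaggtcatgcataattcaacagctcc
Mob1a: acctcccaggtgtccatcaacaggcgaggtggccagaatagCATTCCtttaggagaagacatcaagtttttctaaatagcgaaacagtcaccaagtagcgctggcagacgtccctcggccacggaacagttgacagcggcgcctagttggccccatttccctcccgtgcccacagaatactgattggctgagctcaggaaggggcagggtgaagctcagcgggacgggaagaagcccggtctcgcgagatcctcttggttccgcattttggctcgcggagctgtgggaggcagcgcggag
Sav1: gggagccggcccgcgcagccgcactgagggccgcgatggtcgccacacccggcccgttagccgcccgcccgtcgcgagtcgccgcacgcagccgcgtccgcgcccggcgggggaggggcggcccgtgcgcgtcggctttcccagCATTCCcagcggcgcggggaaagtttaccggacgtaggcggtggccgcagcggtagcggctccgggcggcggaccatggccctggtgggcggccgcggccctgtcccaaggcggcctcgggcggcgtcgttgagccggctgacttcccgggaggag
Counted from the transcript start, the first base of the match lay at -141 for Yap1, -136 for Wwtr1, -209 for Mob1a and -106 for Sav1. Of the 8 genes with a window, 4 held these letters on either strand, and 4 (Stk4, Lats1, Nf2 and Mob1b) did not, while 14.7% of all 32851 windows of 300 bases held them. The 8 genes had 10 windows together, so the count is per gene and the share per window. A match is a run of letters and not a measured binding site. Windows of Tead1 and Stk3 were not analysed here. By RefSeq, the gene of Yap1 spans positions 7931999 to 8004638 of chromosome 9, that of Wwtr1 57455644 to 57575910 of chromosome 3, and that of Tead1 112679356 to 112906784 of chromosome 7. Of the 10 genes, 1 shares its span with a gene that had UMIs, Lats1 with Pcmt1, and use of strand in counting is not given in the sources used here.

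The control library held 2989 barcodes and 9509885 unique molecular identifiers (UMIs, the counted molecules), and the tetYAP 4W library 1524 barcodes and 6777210 UMIs, with medians of 3117 and 4150 UMIs per barcode. Together the 10 genes had 1020 UMIs in the control and 1384 in tetYAP 4W, so that most values by class rest on fewer than 100 molecules. A barcode was called for a cell class where at least 10 UMIs came from at least 5 markers of exactly 1 class other than hepatocytes. Barcodes that met neither limit for any such class were called hepatocyte-like, so that this class was set by the absence of other markers, and numbered 2830 in the control and 633 in tetYAP 4W. Endothelial-like barcodes numbered 75 and 192, macrophage-like 29 and 283, T or NK-like 9 and 101, B-like 1 and 41, and erythroid-like 2 and 29. Barcodes that passed for several classes (5 and 46) were kept apart as possible doublets, as were barcodes that met 1 of the 2 limits (34 and 173). Of the 222 tetYAP 4W barcodes that passed for the endothelial class, 36 had under 15 marker UMIs, and of 317 for the macrophage class 48 did. The genes with the highest fold in hepatocyte-like barcodes of tetYAP 4W included Prss2 and Ctrb1, which encode pancreatic digestive enzymes, and no hepatocyte marker. Xist had 3 and 4859 UMIs and 4 Y-linked genes together 716 and 0, so that the libraries differed in sex, which cannot be told apart from the transgene.

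RNA of hepatocyte genes was counted in all classes. A median hepatocyte-like barcode of tetYAP 4W held 365 UMIs of the 12 hepatocyte marker genes, a T or NK-like barcode 307, a B-like barcode 306 and an erythroid-like barcode 294. The level of a gene in the 171 lymphoid-like and erythroid-like barcodes of tetYAP 4W was therefore taken as the level that free RNA can give, except for genes that lymphoid cells use themselves. The control had 12 such barcodes, in which 0 UMIs of a gene leave a 95% interval of up to 0.307 per barcode, and no free RNA level could be set there. Hepatocyte-like barcodes of tetYAP 4W had a median of 57.9% mitochondrial UMIs against 28.2% in the control. In a clustering of all barcodes, clusters that lacked markers of other classes were named hepatocyte-like. They held 2702 control and 661 tetYAP 4W barcodes, and 0 of these clusters held both libraries. Endothelial-like barcodes lay mostly in 1 cluster in the control (54 of 75) and in another in tetYAP 4W (120 of 192), with 68 further tetYAP 4W barcodes in a cluster named stellate-like. Ratios between the libraries within the hepatocyte-like and endothelial-like classes therefore compare mostly different clusters. Macrophage-like barcodes lay mainly in 2 clusters that held both libraries. One held 23 control and 100 tetYAP 4W macrophage-like barcodes, and the other 6 and 150.

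Yap1 was counted at a low level in each of the 6 larger classes of tetYAP 4W, and per barcode the interval of its ratio to the free RNA level held 0 in hepatocyte-like, endothelial-like and macrophage-like barcodes. It had 48 UMIs in 633 hepatocyte-like barcodes, or 0.0758 per barcode (0.0559 to 0.101), 24 in 192 endothelial-like barcodes (0.125, 0.0801 to 0.186), 19 in 283 macrophage-like barcodes (0.0671, 0.0404 to 0.105) and 14 in the 171 lymphoid-like and erythroid-like barcodes (0.0819, 0.0448 to 0.137). All 4 intervals overlapped, and in hepatocyte-like barcodes Yap1 stood at log2 -0.11 (-0.99 to 0.86) relative to the lymphoid-like and erythroid-like level. Per non-mitochondrial UMI, Yap1 stood there at 0.68 (-0.21 to 1.65). In the control, 146 of its 155 UMIs lay in hepatocyte-like barcodes (94.2%), a class that held 93.0% of all UMIs of that library. The control level was 0.0516 per barcode (0.0436 to 0.0607) in hepatocyte-like and 0.0800 (0.0294 to 0.174) in endothelial-like barcodes, which did not differ beyond counting error. Whether transcripts of the transgene could be counted as Yap1 is not given in the sources used here.

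Wwtr1 had the sharpest class pattern of the 10 genes. In tetYAP 4W, 67 of its 109 UMIs (61.5%, 51.7 to 70.6) fell in endothelial-like barcodes, a class with 14.5% of the UMIs of the library. The level there was 0.349 per barcode (0.270 to 0.443), against 0.0316 (0.0193 to 0.0488) in hepatocyte-like and 0.00707 (0.000856 to 0.0255) in macrophage-like barcodes. The lymphoid-like and erythroid-like barcodes held 2 UMIs, or 0.0117 per barcode, and the ratio of the endothelial-like class to them was log2 4.31 (2.99 to 7.97) with counts under 3 set to 3. The control showed the same order with few molecules, 8 UMIs in 75 endothelial-like against 32 in 2830 hepatocyte-like barcodes, at log2 3.24 (1.91 to 4.39) per barcode. In hepatocyte-like barcodes of tetYAP 4W the interval of Wwtr1 relative to the free RNA level held 0 per barcode (log2 0.85, -0.61 to 4.58), but not per non-mitochondrial UMI (1.64, 0.18 to 5.36). With classes taken from the clusters, its endothelial-like level in tetYAP 4W was 0.469 per barcode.

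**Figure D1:**
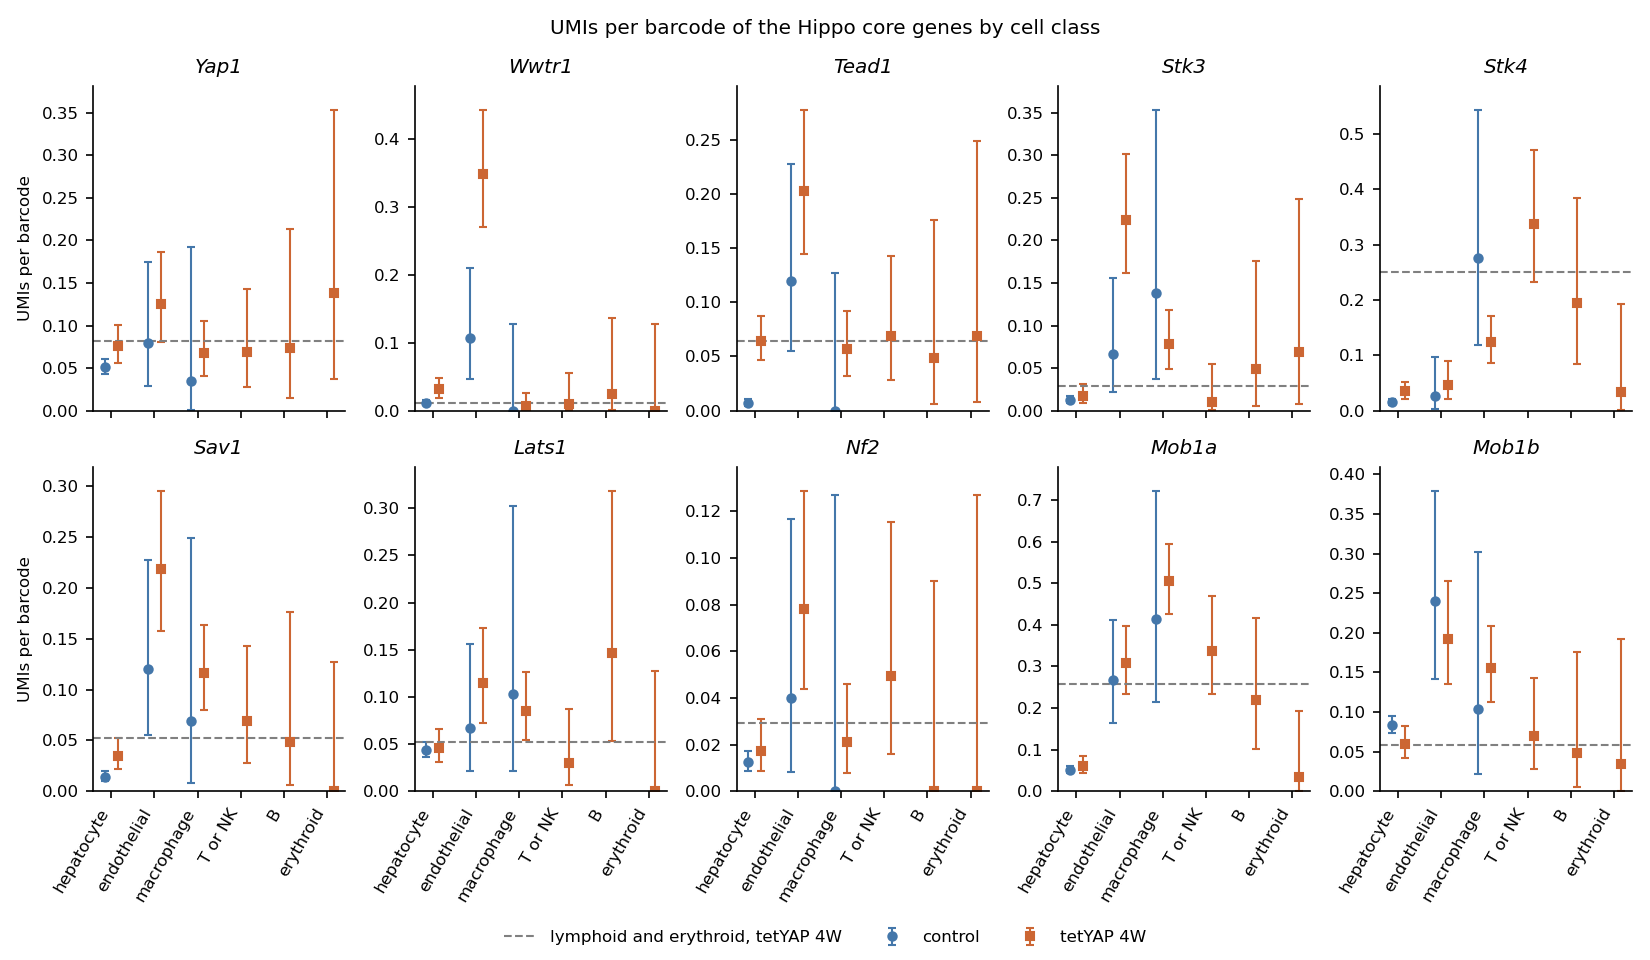
UMIs per barcode (y axis) of each Hippo core gene in cell classes with at least 20 barcodes (x axis), for control (circles) and tetYAP 4W (squares), with exact Poisson 95% intervals as bars and the tetYAP 4W level in lymphoid-like and erythroid-like barcodes as a dashed line. Wwtr1 reaches 0.349 in endothelial-like barcodes of tetYAP 4W and Mob1a 0.505 in macrophage-like barcodes, while Yap1 stays between 0.0671 and 0.138 in all 6 classes shown for tetYAP 4W.

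Tead1 was also highest in endothelial-like barcodes. In tetYAP 4W it had 39 UMIs there, or 0.203 per barcode (0.144 to 0.278), at log2 1.66 (0.67 to 2.77) over the lymphoid-like and erythroid-like level of 0.0643. Thinned to 1000 UMIs per barcode and scaled back to the mean depth, the endothelial-like level was 0.106. After thinning, 3 of the 192 barcodes held a UMI of Tead1, so this value rests on few molecules. In the control, 9 of its 30 UMIs came from the 75 endothelial-like barcodes and 19 from the 2830 hepatocyte-like barcodes, a difference of log2 4.16 (2.83 to 5.37) per barcode. Hepatocyte-like barcodes of tetYAP 4W held 41 UMIs of Tead1, or 0.0648 per barcode (0.0465 to 0.0879), close to the lymphoid-like and erythroid-like level (log2 0.01, -0.98 to 1.12). Per non-mitochondrial UMI that ratio was log2 0.80 (-0.19 to 1.91). Macrophage-like barcodes stood at 0.0565 (0.0323 to 0.0918). Per non-mitochondrial UMI they were lower than hepatocyte-like barcodes, by log2 -0.91 (-1.84 to -0.04) for Tead1 and -0.89 (-1.74 to -0.10) for Yap1.

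Stk3 and Stk4, which encode the closely related kinases MST2 and MST1, were counted in different classes. Stk3 in tetYAP 4W reached 0.224 per barcode (0.162 to 0.302) in endothelial-like barcodes, with 43 of its 93 UMIs, against 0.0777 (0.0487 to 0.118) in macrophage-like and 0.0174 (0.00867 to 0.0311) in hepatocyte-like barcodes. Stk4 reached 0.337 (0.233 to 0.470) in T or NK-like and 0.195 (0.0842 to 0.384) in B-like barcodes, against 0.124 (0.0861 to 0.172) in macrophage-like, 0.0469 (0.0214 to 0.0890) in endothelial-like and 0.0348 (0.0218 to 0.0526) in hepatocyte-like barcodes. For Stk4 the lymphoid-like level is therefore that of the lymphoid cells, and the erythroid-like barcodes, with 1 UMI in 29, give the free RNA level of 0.0345 (0.000873 to 0.192). In the control, Stk4 had 8 UMIs in 29 macrophage-like and 43 in 2830 hepatocyte-like barcodes, at log2 4.18 (2.88 to 5.29).

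Lats1, the gene of the kinase that phosphorylates YAP and TAZ, varied less between classes. Its level in tetYAP 4W was 0.115 (0.0718 to 0.173) in endothelial-like, 0.0848 (0.0543 to 0.126) in macrophage-like and 0.0458 (0.0307 to 0.0658) in hepatocyte-like barcodes, with 9 UMIs or 0.0526 (0.0241 to 0.0999) in the lymphoid-like and erythroid-like barcodes. The intervals of its ratio to the latter held 0 in each of these 3 classes.

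Sav1, whose product joins the MST kinases to LATS, followed Wwtr1 and Stk3 in being highest in endothelial-like barcodes of tetYAP 4W, at 0.219 (0.158 to 0.296), with 0.117 (0.0803 to 0.164) in macrophage-like and 0.0348 (0.0218 to 0.0526) in hepatocyte-like barcodes. In the control it had 9 UMIs in endothelial-like and 41 in hepatocyte-like barcodes, at log2 3.05 (1.82 to 4.11) per barcode. Nf2 had the fewest UMIs of the 10 genes in tetYAP 4W, 47, of which 15 lay in endothelial-like barcodes (0.0781, 0.0437 to 0.129) and 11 in hepatocyte-like barcodes (0.0174, 0.00867 to 0.0311).

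Mob1a and Mob1b encode near-identical MOB1 cofactors of the LATS kinases. Mob1a was highest in macrophage-like barcodes of tetYAP 4W, with 143 of its 338 UMIs (42.3%, 37.0 to 47.8) and 0.505 per barcode (0.426 to 0.595). It stood at 0.337 (0.233 to 0.470) in T or NK-like, 0.307 (0.234 to 0.396) in endothelial-like and 0.0616 (0.0438 to 0.0842) in hepatocyte-like barcodes, with 1 UMI in 29 erythroid-like barcodes. The control gave 12 UMIs in 29 macrophage-like barcodes and 144 in 2830 hepatocyte-like barcodes, at log2 3.02 (2.04 to 3.87). Mob1b was less bound to a class, with 0.193 (0.136 to 0.266) in endothelial-like, 0.155 (0.113 to 0.209) in macrophage-like and 0.0600 (0.0425 to 0.0824) in hepatocyte-like barcodes of tetYAP 4W. Reads that match both genes of such a pair may be dropped or split in counting, so levels of the near-identical genes are uncertain.

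Against the lymphoid-like and erythroid-like barcodes of tetYAP 4W, 7 of the 10 genes were at least 2-fold higher per barcode in endothelial-like barcodes, where 31.7% of all genes tested were. These were Wwtr1, Stk3, Sav1, Mob1b, Tead1, Nf2 and Lats1, and the interval excluded 0 for the first 5 of them. In macrophage-like barcodes 3 of 9 tested were at least 2-fold higher (Stk3, Sav1 and Mob1b), against 19.5% of all genes, and the interval lay above 0 for Sav1, Mob1b and Mob1a but held 0 for Stk3. Against the 29 erythroid-like barcodes alone, Mob1a was the 1 gene at least 2-fold higher there (log2 2.29, 1.37 to 9.19). In hepatocyte-like barcodes 0 of the 10 genes were 2-fold above the lymphoid-like and erythroid-like level, against 2.85% of all genes, and 0 intervals lay above 0. Per non-mitochondrial UMI, 1 did, that of Wwtr1 given above. For Stk4 and Mob1a, both high in T or NK-like barcodes, that level cannot be taken as free RNA. Against erythroid-like barcodes alone, 0 of the 10 genes were 2-fold higher in hepatocyte-like barcodes. Endothelial-like barcodes also held more UMIs (median 5365) and fewer mitochondrial UMIs (25.8%) than hepatocyte-like barcodes (3980 and 57.9%). Per non-mitochondrial UMI, the endothelial-like over hepatocyte-like difference was still log2 2.50 (1.76 to 3.30) for Wwtr1, 2.72 (1.74 to 3.83) for Stk3 and 1.69 (0.91 to 2.50) for Sav1, was 0.68 (0.01 to 1.35) for Tead1, and its interval held 0 for Yap1, Stk4, Lats1 and Nf2.

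Within each pair of related genes, the share of the pair's UMIs taken by 1 gene needs no scaling by depth or mitochondrial content, though free RNA adds to it, and was compared between classes. Yap1 took 70.6% (58.3 to 81.0) of the 68 UMIs of Yap1 and Wwtr1 in hepatocyte-like and 26.4% (17.7 to 36.7) of 91 in endothelial-like barcodes of tetYAP 4W. The odds differed by 6.61-fold (3.15 to 14.4), and in the control, with shares of 82.0% and 42.9%, by 6.00-fold (1.70 to 22.6). Macrophage-like and lymphoid-like barcodes of tetYAP 4W, with Yap1 shares of 90.5% (69.6 to 98.8) and 83.3% (51.6 to 97.9), did not differ from hepatocyte-like barcodes beyond counting error.

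Stk3 took 82.7% (69.7 to 91.8) of the UMIs of Stk3 and Stk4 in endothelial-like, 38.6% (26.0 to 52.4) in macrophage-like, 33.3% (18.0 to 51.8) in hepatocyte-like and 6.67% (1.40 to 18.3) in lymphoid-like barcodes of tetYAP 4W. The odds in endothelial-like over lymphoid-like barcodes differed by 62.1-fold (15.3 to 382). Mob1b took 49.4% (37.8 to 61.0) of the UMIs of Mob1b and Mob1a in hepatocyte-like, 38.5% (28.8 to 49.0) in endothelial-like, 23.5% (17.6 to 30.3) in macrophage-like and 17.3% (8.23 to 30.3) in lymphoid-like barcodes of tetYAP 4W. In the control the Mob1b share was likewise higher in hepatocyte-like than in macrophage-like barcodes, with 62.2% (57.1 to 67.1) in hepatocyte-like and 3 of 15 UMIs (4.33% to 48.1%). Over the 3 pairs and 4 classes, 12 of 18 contrasts between classes in tetYAP 4W and 2 of 15 in the control had an interval that excluded equal odds, with no correction for their number.

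**Figure D2:**
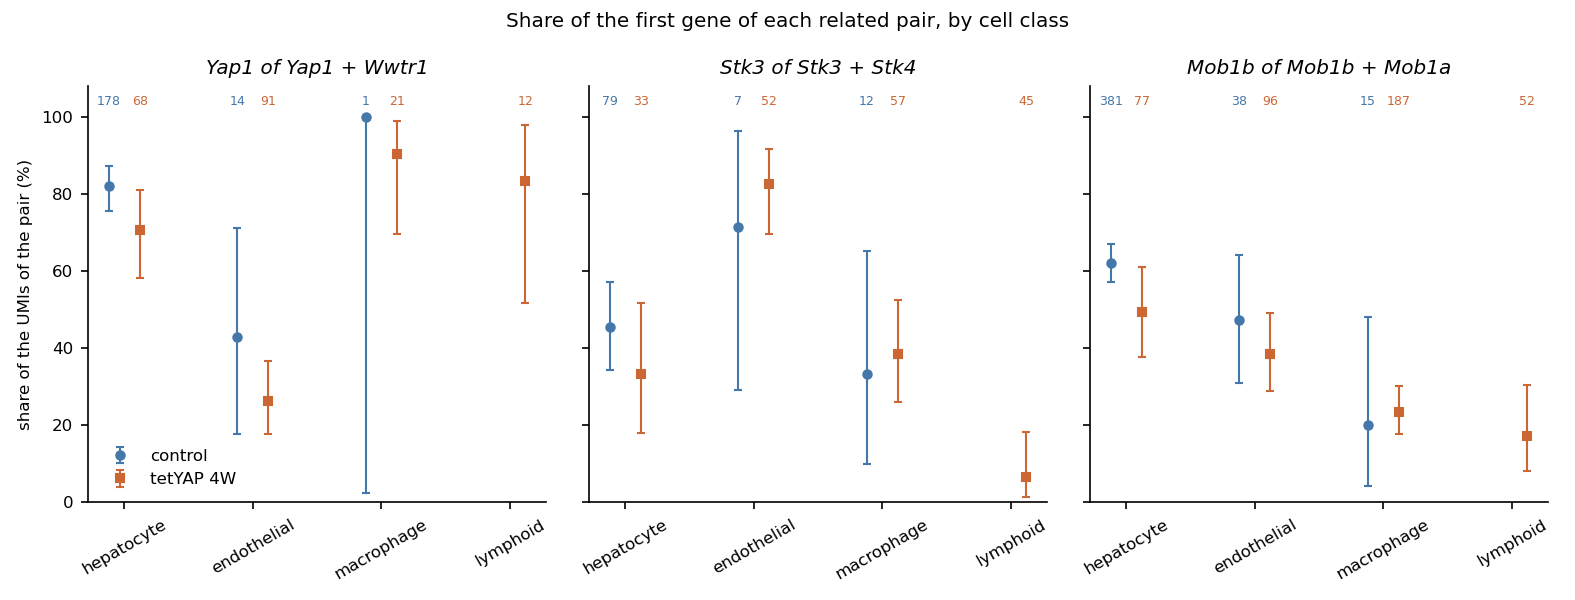
Share of the UMIs of a related pair taken by the gene named first (y axis, percent) in each cell class (x axis), for control (circles) and tetYAP 4W (squares), with exact binomial 95% intervals as bars and the UMIs of the pair above each point. The Stk3 share runs from 82.7% in endothelial-like to 6.67% in lymphoid-like barcodes of tetYAP 4W, and Yap1 falls under 50% only in endothelial-like barcodes.

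Between the libraries, over all barcodes and as counts per 1000000 UMIs (CPM), 6 of the 10 genes were at least 2-fold higher in tetYAP 4W, where 38.3% of all 12621 genes tested were, and 0 were at least 2-fold lower, against 7.89%. The median log2 ratio was 1.39 over the 10 genes and 0.60 over all genes tested. Tead1 went from 30 UMIs (3.15 CPM) in the control to 144 (21.2 CPM), a log2 ratio of 2.75 (2.18 to 3.37). Wwtr1 went from 44 to 109 UMIs (1.80, 1.28 to 2.34), Stk4 from 61 to 150 (1.79, 1.35 to 2.24), Sav1 from 55 to 127 (1.70, 1.23 to 2.18), Stk3 from 49 to 93 (1.41, 0.90 to 1.94) and Mob1a from 184 to 338 (1.37, 1.10 to 1.63). Yap1 stood at 16.3 and 18.9 CPM, from 155 and 128 UMIs, a log2 ratio of 0.21 (-0.14 to 0.56). Mob1b stood at 27.7 and 22.1 CPM (-0.32, -0.62 to -0.03) and Lats1 at 14.4 and 14.5 CPM (0.01, -0.38 to 0.39). The sign of Yap1, Lats1 and Mob1b changed with the scaling or with a limit on mitochondrial UMIs. The median of all genes also moved, to log2 1.05 under that limit. Relative to the median of 0.60 given above, 4 of the 10 genes remained at least 2-fold higher. Endothelial-like and macrophage-like barcodes went from 2.51% and 0.970% of the control to 12.6% and 18.6% of tetYAP 4W, and their part in these ratios cannot be told apart from a change within cells by the totals alone.

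**Figure D3:**
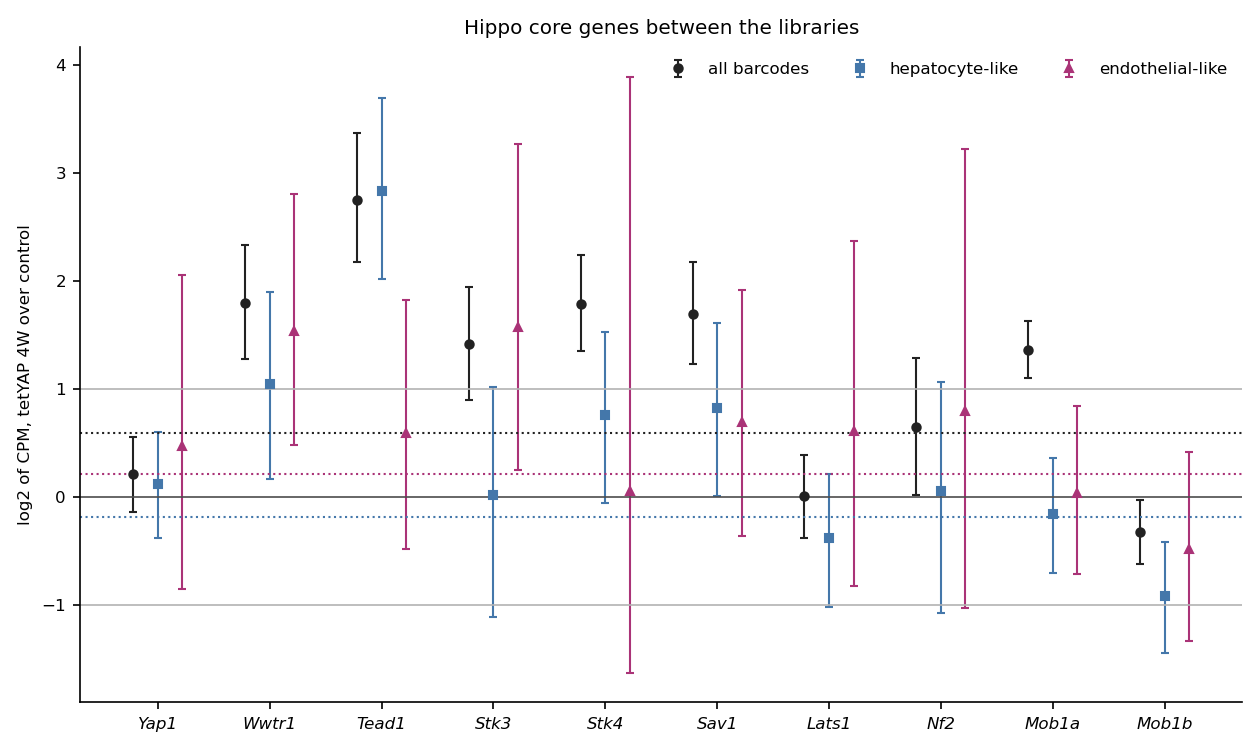
Log2 ratio of CPM, tetYAP 4W over control (y axis), of the 10 genes (x axis) in all barcodes (circles), hepatocyte-like barcodes (squares) and endothelial-like barcodes (triangles), with exact conditional binomial 95% intervals as bars, the median of all genes of each set as dotted lines and 2-fold as grey lines. Tead1 is near 2.8 in all and in hepatocyte-like barcodes (2.75 and 2.83), while Stk3 and Mob1a lie above 1 in all barcodes and near 0 in hepatocyte-like barcodes (0.01 and -0.16).

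In hepatocyte-like barcodes, which shared no hepatocyte-like cluster between the libraries, 2 of the 10 genes were at least 2-fold higher in tetYAP 4W, against 16.2% of 10802 genes, and 0 were at least 2-fold lower, against 16.7%. The median over the 10 genes was log2 0.09 and over all genes -0.18. Tead1 was the higher of the 2, from 19 UMIs (2.15 CPM) in 2830 barcodes to 41 (15.3 CPM) in 633, at log2 2.83 (2.02 to 3.70). Its tetYAP 4W level did not differ beyond counting error from that of lymphoid-like and erythroid-like barcodes, per barcode or per non-mitochondrial UMI, as given above. Wwtr1 went from 3.62 to 7.47 CPM, at 1.05 (0.16 to 1.90). The ratios were 0.12 (-0.38 to 0.60) for Yap1, 0.01 (-1.11 to 1.02) for Stk3, 0.76 (-0.05 to 1.53) for Stk4, 0.83 (0.01 to 1.61) for Sav1, -0.38 (-1.02 to 0.21) for Lats1, 0.05 (-1.07 to 1.07) for Nf2 and -0.16 (-0.71 to 0.36) for Mob1a. Mob1b was lower, from 26.8 to 14.2 CPM at -0.92 (-1.45 to -0.42). In barcodes with at most 30% mitochondrial UMIs Mob1b stood at 0.55, under the median of 0.99 over all genes there.

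Endothelial-like barcodes fell mostly in different clusters in the 2 libraries. In them, 2 of the 10 genes were at least 2-fold higher in tetYAP 4W, against 12.9% of 8680 genes, and 0 at least 2-fold lower, against 7.79%. Wwtr1 went from 8 UMIs in 75 barcodes (23.5 CPM) to 67 in 192 (68.3 CPM), at log2 1.54 (0.48 to 2.81), and Stk3 from 5 UMIs (14.7 CPM) to 43 (43.9 CPM), at 1.58 (0.25 to 3.27). Tead1 stood at 26.4 and 39.8 CPM, at 0.59 (-0.48 to 1.82).

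Hepatocyte-like barcodes were then placed in 3 groups of equal size in each library by the share of Malat1 and Neat1, RNAs that stay in the nucleus. In tetYAP 4W, 7 of 9 tested genes had at least 2-fold more UMIs per barcode in the upper than in the lower group, where 33.1% of 7273 genes did, and in the control 2 of 10 did (Sav1 and Tead1), against 5.8% of 9260 genes. In tetYAP 4W, Tead1 had 6 UMIs in the 211 barcodes of the lower, 8 in the middle and 27 in the upper group, at log2 2.17 (0.86 to 3.74) for upper over lower. Yap1 had 10, 12 and 26 (1.38, 0.28 to 2.60), Mob1b 8, 8 and 22 (1.46, 0.24 to 2.84), Wwtr1 1, 9 and 10, and Stk3 1, 1 and 9. The median mitochondrial share fell from 61.1% in the lower to 46.2% in the upper group. Per non-mitochondrial UMI, upper over lower was log2 1.97 (0.66 to 3.54) for Tead1 and 1.18 (0.08 to 2.39) for Yap1. It was 1.26 (0.04 to 2.64) for Mob1b, while Sav1, past 2-fold per barcode (1.14), stood at 0.94 (-0.71 to 2.81). The part of the mitochondrial share beyond this scaling was not tested. In the control, whose groups differed little in mitochondrial share (29.3% and 28.0%), Sav1 had 8 UMIs in the lower and 22 in the upper group (log2 1.46, 0.24 to 2.84), Tead1 5 and 13 (1.38, -0.20 to 3.22), Yap1 59 and 49, and Mob1b 82 in each.

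**Figure D4:**
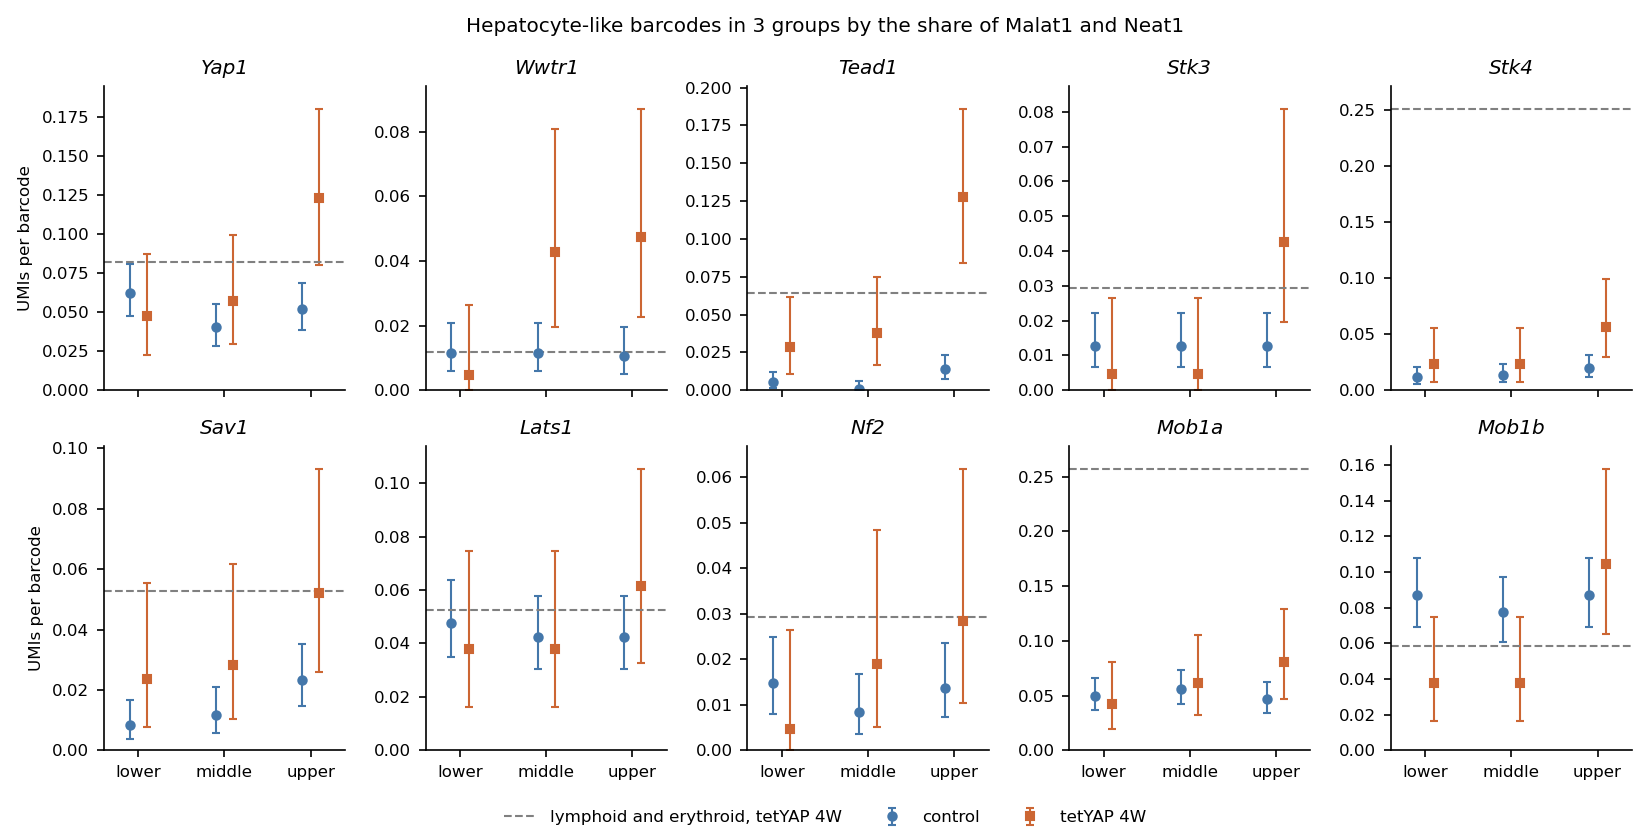
UMIs per barcode (y axis) of each gene in hepatocyte-like barcodes, placed in 3 groups of equal size within each library by the share of Malat1 and Neat1 (x axis), for control (circles) and tetYAP 4W (squares), with exact Poisson 95% intervals as bars and the tetYAP 4W level in lymphoid-like and erythroid-like barcodes as a dashed line. Tead1 in tetYAP 4W goes from 0.0284 in the lower to 0.128 in the upper group, above the dashed line at 0.0643.

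In the upper group of tetYAP 4W, Tead1 reached 0.128 per barcode (0.0843 to 0.186), at log2 0.99 (-0.07 to 2.15) over the lymphoid-like and erythroid-like level and 2.92 (1.91 to 4.0) over the upper group of the control per UMI. Yap1 reached 0.123 (0.0805 to 0.181), at 0.59 (-0.40 to 1.64) and 0.95 (0.20 to 1.66). A limit on mitochondrial UMIs gave larger values. Of the hepatocyte-like barcodes, 92 of 633 in tetYAP 4W had at most 30% mitochondrial UMIs, against 1739 of 2830 in the control. Then 8 of the 10 genes were at least 2-fold higher in tetYAP 4W, where 49.7% of 9571 genes were and the median of all genes was log2 0.99. Among the 8, Wwtr1, Stk3 and Nf2 had only 3, 4 and 3 UMIs in tetYAP 4W, with intervals that held 0. In these 92 barcodes Tead1 had 20 UMIs, or 0.217 per barcode, against 5 UMIs in 123 lymphoid-like and erythroid-like barcodes under the same limit (0.0407), at log2 2.42 (0.96 to 4.19). This comparison was chosen after the values were seen. Lats1 (log2 1.42, -0.26 to 3.32) and Mob1b (1.07, -0.43 to 2.68) also passed 2-fold in it, 3 of the 6 genes with at least 10 UMIs in both sets together, against 14.7% of 7177 genes. Under the limit, the control held 13 UMIs of Tead1 in 1739 barcodes. Markers of other classes in the 92 barcodes had means of 1.10 UMIs for endothelial, 3.43 for macrophage and 0.489 for stellate or mesenchymal cells. The control barcodes under the limit had 0.376, 0.108 and 0.22. Means were 0.359 for T or NK and 0.185 for neutrophil or monocyte markers, against 0.00863 and 0.0023 in that control set. Malat1 and Neat1 had a mean of 38.7 UMIs in the 92 barcodes (median 4), against 2.78 (median 2). The part of other cells in the Tead1 value was not tested. A clustering of all barcodes placed 73 of the 92 barcodes, with 19 of the 20 UMIs of Tead1, in clusters named hepatocyte-like. That name was given for lack of markers of other classes, by which the 92 barcodes were also picked. The placement is therefore no separate evidence of their cell type.

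The other 38 genes of a longer Hippo list were summed in the same way. Over all barcodes, 22 of the 37 tested were at least 2-fold higher in tetYAP 4W and 1 at least 2-fold lower, against 38.3% and 7.89% of all genes, with 1.23 as their median on the log2 scale. Of 31 tested in hepatocyte-like barcodes, 11 were higher and 2 lower, against 16.2% and 16.7% of all genes, with a median of 0.58. The highest ratios over all barcodes among genes with at least 20 UMIs were those of Wtip, an Ajuba family gene, from 6 to 58 UMIs (3.76, 2.55 to 5.27), Map4k4, a kinase that acts beside the MST kinases, from 26 to 220 (3.57, 2.98 to 4.22), and Rassf1, a partner of the MST kinases, from 23 to 159 (3.28, 2.64 to 3.98). The lowest were those of Stk38l, a kinase of the LATS family, from 61 to 21 UMIs (-1.05, -1.84 to -0.31), Crb3, a polarity gene, from 162 to 65 (-0.83, -1.27 to -0.41), and Tead3, from 19 to 11 (-0.30, -1.52 to 0.85). Lats2, the second LATS kinase gene, had 58 and 123 UMIs (1.57, 1.11 to 2.05). Tead2 had 4 and 25 UMIs (3.13, 1.60 to 5.12), of which 0 and 2 lay in hepatocyte-like barcodes, and Tead4 had 2 and 11, of which 0 and 3 did. Of 3 genes known as targets of YAP and TEAD, Ctgf had 4 and 33 UMIs, of which 4 and 20 lay in hepatocyte-like barcodes, Cyr61 had 20 and 140, of which 18 and 68 did, and Ankrd1 had 0 and 4.

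Over the 9 library and class sums with at least 20 barcodes, the genes whose log2 level ran most like that of Wwtr1 were Masp1, Adamts1 and Col4a1 (r = 0.98, 0.97 and 0.97), and Gstm2 and Fabp4 were among those most like Tead1 (r = 0.95 and 0.93). Those most like Yap1 were Slc17a4, Slc16a1 and Slco2b1, with lower values of r (0.87, 0.84 and 0.82). These correlations describe 9 points that share 2 libraries, were ranked over 5346 genes, and carry no test.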

How the data were processed

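Hepatocytes were isolated by liver perfusion and profiled by droplet-based 3′ single-cell RNA-seq. The authors deposited raw counts, whole numbers of UMIs per gene and barcode, made per the submitters' processing notes and the study's methods with Cell Ranger against mm10 and Seurat version 3. Their methods state down-sampling to 3000 cells per condition and removal of cells above 7500 UMIs. The table held 2989 and 1524 barcodes, 0 of them above that limit and 0 shared between libraries by sequence, and all were used. Groups came from the genotype labels.

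UMIs were summed by library and cell class. Sums carry exact Poisson, shares exact Clopper-Pearson and ratios exact conditional binomial 95% intervals, which cover counting error only. In ratios, counts under 3 were set to 3, and genes with at least 10 UMIs in both sets together were tested against a fold of 2. A barcode's class came from marker lists, and the limits of 10 UMIs and 5 markers were set after the data were seen. No doublet caller was used. The members and all lists were chosen with earlier results of these data known. Named genes were the 10 members, the 3 highest and 3 lowest of the other 38 Hippo genes, 4 fixed LATS and TEAD genes, 3 targets, and the 3 genes most like Yap1, Wwtr1 and Tead1 (Pearson r of log2(CPM + 10), genes with at least 200 UMIs), of which 1 is not reported here. The ratio functions were tested on simulated data. Alternatives were Leiden clusters (scanpy 1.11.5, 2000 variable genes, 20 components, 15 neighbours, resolution 0.8), marker limits of 5 and 20 UMIs, edgeR 4.0.16 TMM factors used as scaling only, other totals, thinning, minimum counts and a limit of 30% mitochondrial UMIs. Python 3.11.15, numpy 2.4.6, scipy 1.17.1 and R 4.3.3 were used.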

Additional observations from a re-analysis of the deposited data

Results flagged for a closer look

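Xist, the RNA of the inactive X chromosome, was counted 4859 times in tetYAP 4W against 3 times in the control.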

How the results depend on the processing

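Of 76 alternative values of the counts of genes past 2-fold, 12 moved by more than 1.5 times. In hepatocyte-like barcodes, where 2 genes were at least 2-fold higher in tetYAP 4W, the number was 4 with totals that leave out mitochondrial and the 50 most abundant genes, 8 without barcodes above 30% mitochondrial UMIs, 1 with tetYAP 4W thinned to the mean control depth, and 1 with classes from clusters or with a marker limit of 5 UMIs, where 1 gene was also at least 2-fold lower. Above the lymphoid-like and erythroid-like level there were 0 genes in hepatocyte-like barcodes, but 1 (Wwtr1) per non-mitochondrial UMI and 3 with at most 30% mitochondrial UMIs in both sets, an alternative added after the data were seen. Against the 29 erythroid-like barcodes alone, 4 of 10 tested genes were above in endothelial-like barcodes (Wwtr1, Stk3, Sav1 and Mob1a) in place of 7. In macrophage-like barcodes 1 of 8 tested was (Mob1a), in place of 3 others. The share of all genes above erythroid-like barcodes alone is not given here. With the 30% limit, 5 of 8 tested were above in macrophage-like barcodes, where the share of all genes rose from 19.5% to 30.3%. In the control, grouping hepatocyte-like barcodes by non-mitochondrial share gave 0 genes in place of 2. The cause was not tested.

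TMM factors moved the median log2 ratio of all genes from 0.60 to 0.04 over all barcodes, and with them 4 genes in place of 6 were at least 2-fold higher. Over all alternatives the log2 ratio of Tead1 ran from 2.19 to 3.20 in all and from 2.81 to 4.71 in hepatocyte-like barcodes, that of Wwtr1 from 1.24 to 2.34 and from 0.73 to 1.63, and that of Yap1 from -0.35 to 0.57 and from -0.03 to 1.37. In hepatocyte-like barcodes the sign also changed for Stk3, Stk4, Lats1, Nf2, Mob1a and Mob1b. There the median log2 ratio of all genes was -0.18 in the main setting and 0.99 with at most 30% mitochondrial UMIs. No paired analysis was possible because each group has 1 library. The interval of the ratio between libraries held 0 for 8 of the 10 genes in endothelial-like and for 8 of 8 tested in macrophage-like barcodes.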
